A study of Mus musculus with 8 samples.

Results

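The Ifi200 family is a cluster of interferon-inducible genes on mouse chromosome 1, and its expression was described here in the dorsal skin of Balb/c mice treated with the contact sensitizer 1-chloro-2,4-dinitrobenzene (DNCB). Members were found by symbol in the probe annotation: symbols that begin with Ifi20 or Ifi21, together with Mnda, Mndal, Pyhin1 and Aim2. This gave 17 of 45101 probe sets, of which 11 carried 1 symbol and the others several. The 8 Affymetrix arrays, 1 per sample, comprised 2 sham, 3 DNCB and 3 DNCB+HY209 samples. DNCB was applied for 15 days in the DNCB and DNCB+HY209 groups, and over the last 7 of these days the skin received vehicle in the former and 5% HY209-PEG gel in the latter. HY209 is known to activate GPCR19, which responds to bile acids. Sham samples carry neither agent by title and source name, but their protocol fields repeat the DNCB procedure, which leaves the comparisons against sham with that uncertainty. Labels give no age or sex, and do not state that each array was a mouse of its own. The p-values below therefore measure the spread between arrays, which may be technical.

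Proteins of the Ifi200 family share a DNA-binding HIN domain, and many also carry a pyrin domain through which they bind other proteins. Aim2 binds DNA in the cytosol and assembles an inflammasome with the adaptor Pycard and the protease Casp1, which matures interleukin 1 beta and interleukin 18. Ifi204 is related to human IFI16 and is known as a sensor of DNA upstream of type I interferon, whereas Ifi202b lacks a pyrin domain, binds DNA and opposes Aim2. Ifi203, Ifi205, Ifi211, Mndal and the other members are known mainly as nuclear proteins of leukocytes that interferons induce. In a whole-skin sample, keratinocytes, fibroblasts and resident or recruited leukocytes can all contribute transcripts, and fewer cells of a type and less RNA per cell cannot be told apart.

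The RefSeq reference table (GRCm38.p6) placed 14 family genes, among them the pseudogene Ifi203-ps, in 1 cluster from Aim2 (chr1:173349547-173466040) to Ifi205 (chr1:174011998-174031755). Ifi206, Ifi208 and Ifi214 had no probe set listed here. Because interferon induction is a shared property of the family, the 250 bases before each annotated start were searched on both strands for the core of the interferon-stimulated response element, written as GAAA, any 2 bases and GAAA again. The promoter table held 12 of these genes with 14 starts. The core was found before 9 of the 12 genes, against 3.46% of all 27025 genes with a promoter entry. The core was absent from the windows of Aim2, Ifi209 and Ifi202b. Of the other 2 cores searched, that of the gamma-activated site (TTCNNNGAA) was found before 1 family gene, Ifi202b, against 8.13% of all genes. The AP-1 core (TGANTCA) was found before 3, namely Ifi209, Mndal and Ifi203, against 7.82%. No matches of different cores overlapped. A match is a description of the letters and says nothing of whether a factor binds there. All letters are those of the reference build, and the sequence of the Balb/c mice, which may differ, was not examined.

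Sequences of 60 bases around the response element are shown because their flanks show how alike the family promoters are; they run 5′ to 3′ on the gene's strand, with the 10 letters of the core in capitals.
Mndal (chr1:173880189-173880248, minus strand): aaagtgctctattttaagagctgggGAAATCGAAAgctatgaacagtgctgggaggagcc
Ifi211 (chr1:173913049-173913108, minus strand): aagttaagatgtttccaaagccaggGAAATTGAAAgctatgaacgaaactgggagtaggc
Ifi205 (chr1:174031855-174031914, minus strand): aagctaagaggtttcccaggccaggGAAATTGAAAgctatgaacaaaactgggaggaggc
Ifi207 (chr1:173741816-173741875, minus strand): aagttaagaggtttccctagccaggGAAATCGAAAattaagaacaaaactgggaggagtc
Ifi213 (chr1:173599311-173599370, minus strand): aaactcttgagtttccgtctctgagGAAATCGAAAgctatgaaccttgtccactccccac
The window of Ifi203 was identical to that of Mndal in all 60 bases, and that of Ifi208 to that of Ifi213. Ifi211 and Ifi205 shared 54 of 60 bases, Ifi207 and Ifi205 shared 52, and Mndal and Ifi213 shared 34. The core began 36 bases before the outer of both starts listed for Mndal, 35 before the inner start of Ifi203, 37 before the start of Ifi211 and 134 before that of Ifi205.

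**Figure D1:**
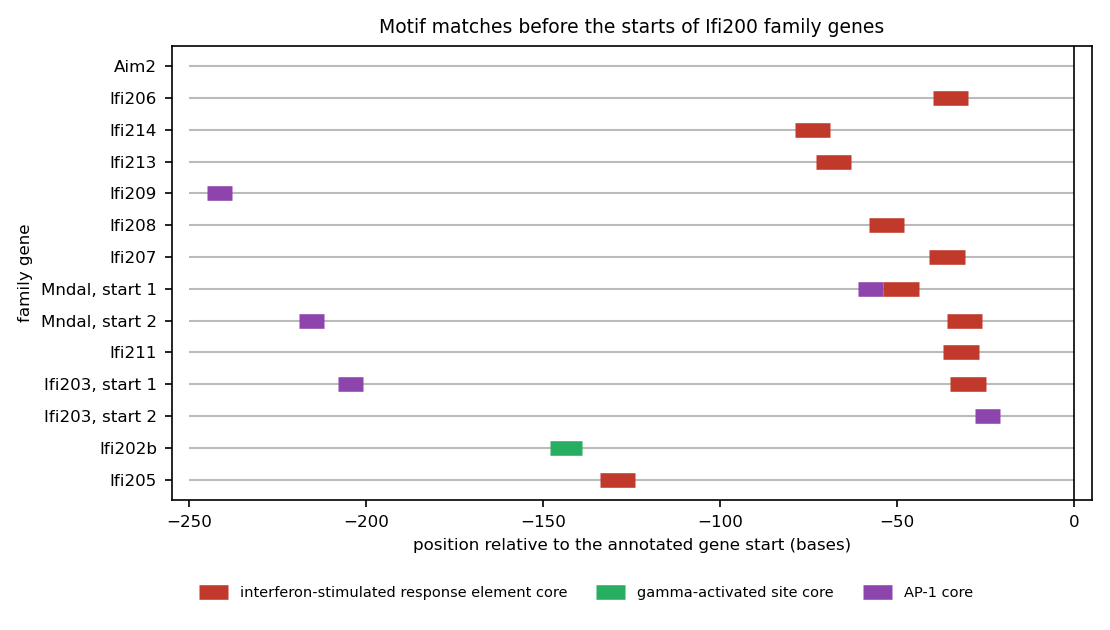
Positions of the 3 cores in the 250 bases before each of the 14 annotated starts of 12 family genes; the x axis gives bases relative to the start and each row is 1 start, in chromosome order. The response element core lies before 9 of the 12 genes and is missing from the rows of Aim2, Ifi209 and Ifi202b.

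The promoter of Ifi202b, the gene with the largest difference between groups below, is shown whole for that reason, as the 250 bases before its start (chr1:173982845-173983094, minus strand), with the match to the gamma-activated site core in capitals.
Ifi202b: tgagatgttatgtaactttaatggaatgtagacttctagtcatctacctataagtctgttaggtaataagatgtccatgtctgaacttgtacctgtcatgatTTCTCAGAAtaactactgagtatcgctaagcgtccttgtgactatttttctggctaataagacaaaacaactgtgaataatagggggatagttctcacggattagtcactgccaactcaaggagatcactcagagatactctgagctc
The match began 148 bases before the start. These letters too are of the reference build and need not be those of the Balb/c mice.

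Signals are the authors' deposited log2 values per probe set, and the median of all probe sets on an array lay between 4.07 and 4.22. Tested were the probe sets that exceeded this median on 2 or more of the 8 arrays, namely 9 of the 17 in the family and 24675 in all. The other 8 family probe sets lay below the median on every array, so that their differences are approximate. Among them were the only probe sets listed for Aim2 and Ifi207, all those for Ifi209 and Ifi213, the only one listed for Ifi204 alone and 1 of the 4 that list Ifi203. For Aim2 the signals were 2.27 and 2.32 in sham, 2.15, 1.97 and 2.52 in DNCB, and 2.33, 2.26 and 2.05 with HY209. The groups overlapped for Aim2 in every comparison. For Ifi204 they were 2.44 and 2.51 in sham, 3.05, 3.53 and 2.36 in DNCB, and 2.19, 2.73 and 2.87 with HY209, again with overlapping groups. The family was proposed under the name of DNA sensors; of its 2 best known sensors, Aim2 was below the array median throughout, and Ifi204 exceeded it only through a probe set that also lists Mndal, Ifi211 and Ifi205. No detection calls were analysed here, so a low signal does not show that the transcript was absent.

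**Figure D2:**
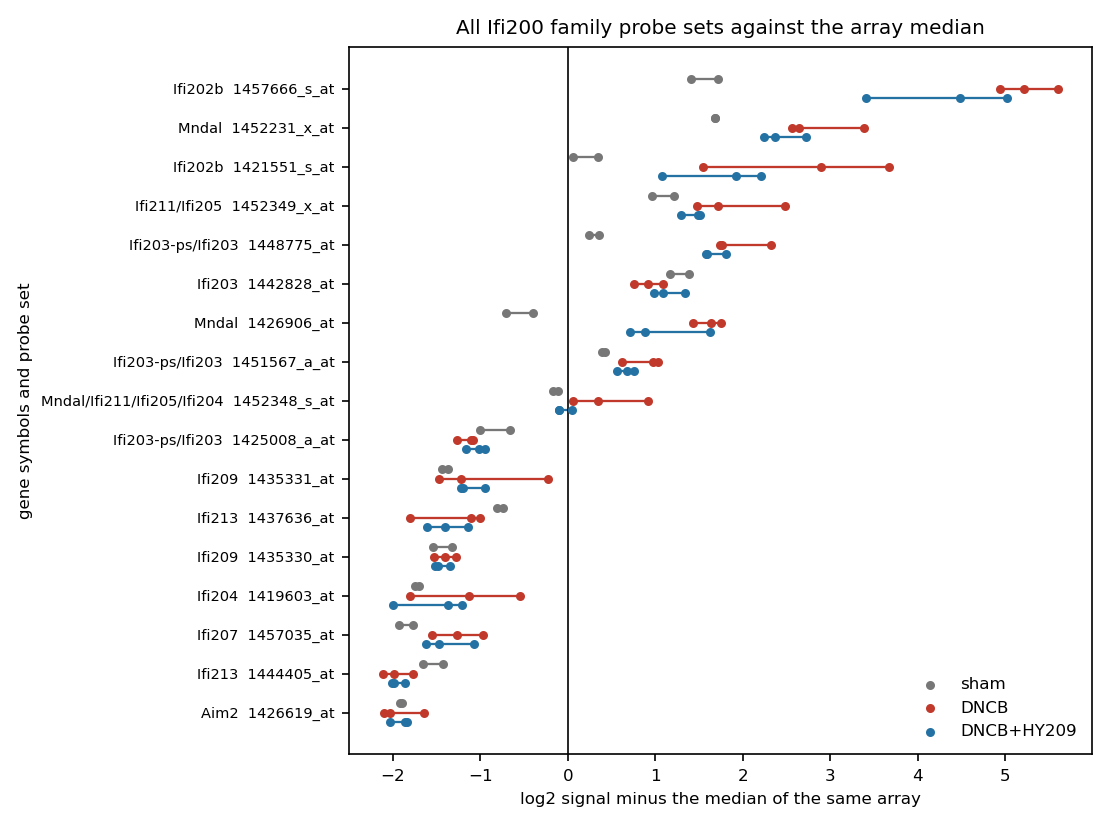
Log2 signal minus the median of the same array (x axis) for all 17 family probe sets; points are arrays, lines span the arrays of a group, and colours give the group. The 9 tested probe sets lie at the top, with Ifi202b farthest above the median in the DNCB groups, and 8 probe sets, with Aim2 at the bottom, lie left of 0 on all arrays.

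The first comparison asked how DNCB-treated skin differed from sham skin. In DNCB skin the signals of Ifi202b, of Mndal and of a probe set shared by Ifi203 and its pseudogene were higher than in sham, by 12.4-fold, approximately 4.28-fold and 3.00-fold on 1 probe set each. Aim2, with a low signal in every group, did not separate. The members were chosen by symbol, but the family itself was selected on earlier results of these data, and which of the measured differences were used is not recorded. All 3 comparisons are therefore taken as used, and the values of the members are a description without p-values, from which nothing is read against the background. A call here means an adjusted p under 0.05 by limma in 1 fit of all 24675 probe sets. Of the 9 tested family probe sets 3 were called higher in DNCB and 0 lower, beside 0.766% called higher and 0.19% called lower of all probe sets tested. For 8 of the 9 every DNCB array lay above both sham arrays, beside 21% of all probe sets, and for 1 every DNCB array lay below, beside 12.6%. The median log2 difference was 1.12 over the 9, and 0.11 over all probe sets tested. Since a probe set can pass the filter through the group in which it is high, the 9 are not all members: over the 17 found, 11 differences lay above 0 and 6 below, with a median of 0.51. Over all 45037 probe sets without the filter, 46.3% of differences lay above 0 and the median was -0.03.

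Ifi202b, which encodes a DNA-binding protein without a pyrin domain, had the largest difference of the family. On its probe set 1457666_s_at, which also lists the locus LOC100044068, the signals were 5.59 and 5.94 in sham, 9.39, 9.68 and 9.11 in DNCB, and 7.60, 9.13 and 8.57 with HY209. Every DNCB array lay more than 3 log2 units above both sham arrays, and the HY209 arrays lay between, with array 2 inside the range of DNCB. The difference between DNCB and sham was 3.63 (SE 0.41), or 12.4-fold, and was called. The probe set 1421551_s_at, which lists Ifi202b alone, had signals of 4.52 and 4.28 in sham, 7.08, 7.75 and 5.72 in DNCB, and 5.26, 6.32 and 6.00 with HY209. It also separated DNCB from sham, with wide spacing between the DNCB arrays, and its difference of 2.45 (SE 0.53), or 5.45-fold, was not called. In the platform's naming, the suffix s marks probes that match several transcripts, so both probe sets may also read near-identical copies.

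Mndal, a member named after human MNDA, was measured by 2 probe sets with its symbol alone. On 1426906_at the signals were 3.48 and 3.82 in sham, 5.93, 5.71 and 5.60 in DNCB, and 4.89, 4.99 and 5.71 with HY209. The DNCB arrays lay close together and apart from sham, with a difference of 2.10 (SE 0.27) that was called. Both sham signals lay below the array medians, so the 4.28-fold difference is approximate. The 6 arrays on which this probe set exceeded the median were all from DNCB-treated skin, so it passed the filter only through the groups in which it was high, and its call supports nothing. On 1452231_x_at the signals were 5.87 and 5.90 in sham, 7.56, 6.63 and 6.82 in DNCB, and 6.56, 6.35 and 6.81 with HY209. There the difference of 1.12 (SE 0.30), or 2.17-fold, was smaller and not called. The suffix x marks probes that can cross-hybridize with similar sequences.

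Probe sets listing Ifi203, which encodes a nuclear HIN-domain protein, disagreed in direction. On 1448775_at, which also lists Ifi203-ps and LOC100862473, the signals were 4.43 and 4.58 in sham, 6.51, 5.82 and 5.94 in DNCB, and 5.77, 5.69 and 5.89 with HY209. The difference of 1.59 (SE 0.24), or 3.00-fold, was called. On 1442828_at, the only one that lists Ifi203 alone, the signals were 5.57 and 5.38 in sham, 5.09, 4.83 and 5.26 in DNCB, and 5.53, 5.20 and 5.07 with HY209. Here every DNCB array lay below both sham arrays, with a difference of -0.41 (SE 0.22) that was not called. Another, 1451567_a_at, differed by 0.41 (SE 0.19), and the fourth lay below the filter with a difference of -0.38 (SE 0.17). Which of the listed genes each probe set reads cannot be told apart with these files.

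Ifi205 and Ifi211, members that RefSeq also lists under the synonyms Ifi205a and Ifi205b, were measured only by probe sets with several symbols. On 1452349_x_at, which lists both, the signals were 5.40 and 5.18 in sham, 6.66, 5.79 and 5.65 in DNCB, and 5.68, 5.40 and 5.60 with HY209. DNCB lay above sham without overlap, chiefly through array 1, with a difference of 0.75 (SE 0.30). The probe set 1452348_s_at, which adds Mndal and Ifi204, had signals of 4.07 and 4.05 in sham, 5.10, 4.43 and 4.23 in DNCB, and 4.24, 4.01 and 3.98 with HY209. Only DNCB array 1 stood clearly above the array medians there, and the difference was 0.52 (SE 0.26). Both sham signals lay below those medians, so 1452348_s_at passed the filter only through arrays of DNCB-treated skin. Neither probe set was called. DNCB array 1 was the highest of the 3 DNCB arrays on 6 of the 9 family probe sets, beside 20.4% of all probe sets tested, and array 3 the lowest on 6, beside 33.5%. Without array 1 the differences of 1452349_x_at and 1452348_s_at were 0.43 and 0.27.

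**Figure D3:**
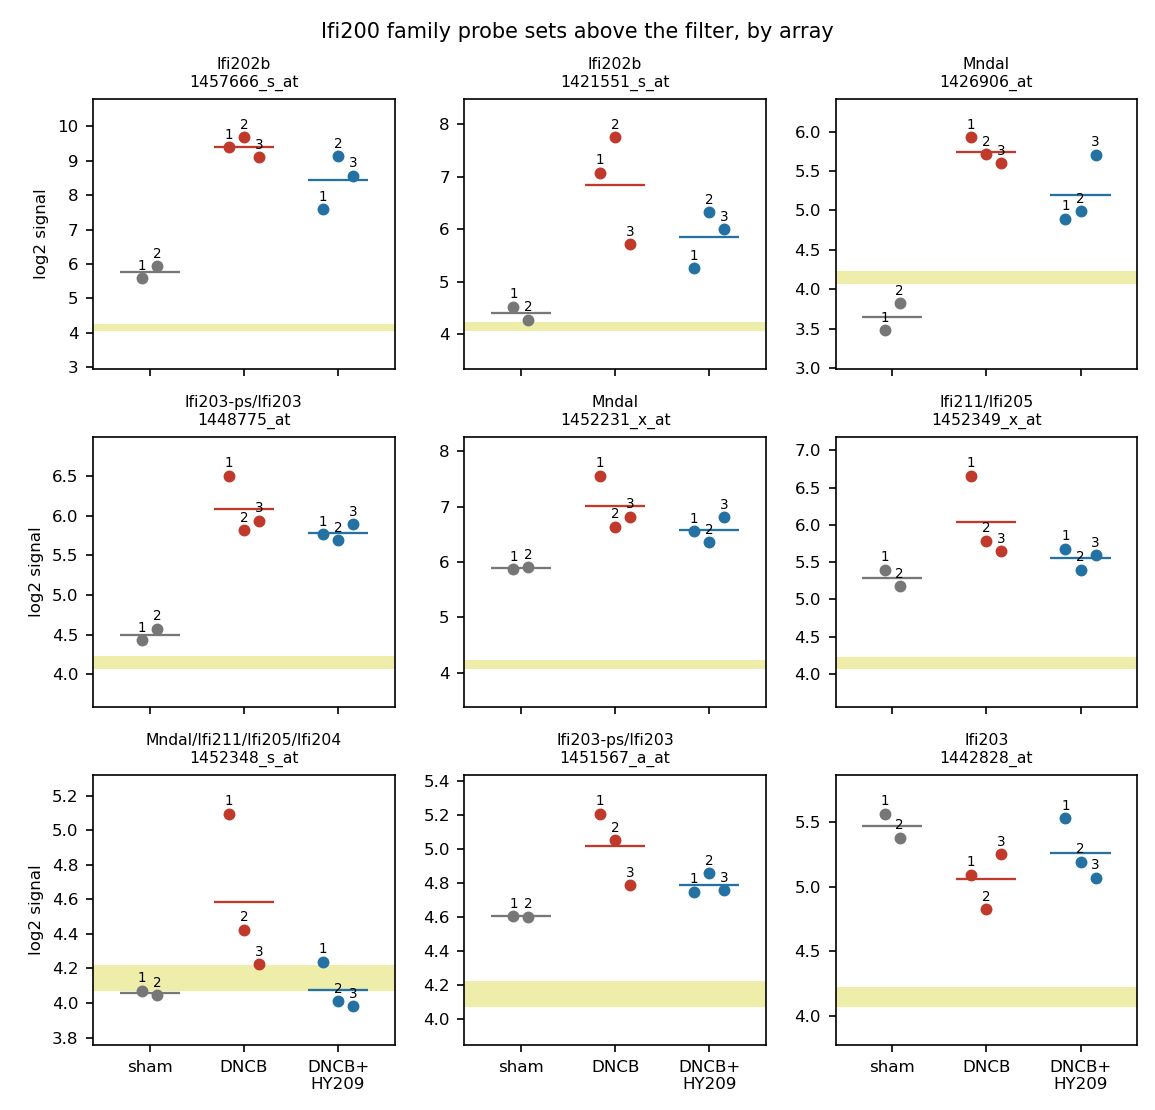
Log2 signal of the 9 tested family probe sets by group; points are arrays labelled with the replicate number, horizontal lines are group means, and the shaded band is the range of the array medians. DNCB lies above sham without overlap in 8 panels and below it in the panel of 1442828_at, and no panel separates DNCB+HY209 from DNCB.

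Among the 8 probe sets below the filter, Ifi207 had signals of 2.26 and 2.44 in sham and of 2.91, 3.11 and 2.61 in DNCB, a difference of 0.53 (SE 0.18). Both Ifi213 probe sets lay lower in DNCB, by differences of -0.59 (SE 0.26) and -0.48 (SE 0.15). Those of Ifi209 differed by -0.03 (SE 0.14) and 0.38 (SE 0.32), with overlapping groups. All of these values lie below the array medians and come from the fit without a filter.

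The calls of the family depended on the setting, as did those over all probe sets tested. Over all, 236 were called in the main fit, 20 with the spike-in covariate, 41 without DNCB array 1 and 209 without DNCB array 3. Without sham array 1 or without sham array 2 the fit called 0 family probe sets, without DNCB array 1 it called 1, and with the level of the bacterial spike-in controls as a covariate it called 0. Without DNCB array 3 it called 4. The log2 differences of the 3 called probe sets moved little: across the alternatives in which each was fitted, that of Ifi202b on 1457666_s_at ran from 3.14 to 3.80, that of Mndal on 1426906_at from 1.93 to 2.27, and that of 1448775_at from 1.38 to 1.76. The other Ifi202b probe set, 1421551_s_at, had a difference of 1.52 with the spike-in covariate and 3.01 without DNCB array 3. The spike-in level, a mean log2 signal of 7 probe sets, was 11.35 and 12.01 in sham, 11.09, 9.67 and 11.21 in DNCB, and 11.26, 10.36 and 10.30 with HY209, and the Gapdh 3'/5' ratio, a measure of RNA quality, was 7.35 on DNCB array 3 and 2.10 to 4.46 on the others.

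The second comparison asked whether HY209 gel changed these genes in DNCB-treated skin. Limma called 0 of the 9 family probe sets and 0% of the 24675 probe sets tested. At an unadjusted p under 0.05, 74 of the latter (0.3%) were higher and 233 (0.944%) lower. The family lay lower with HY209 in point estimates: 8 of 9 differences lay below 0, beside 43.9% of all probe sets, with a median of -0.48 against 0.03 over all. Over the 17 found, 15 differences lay below 0 with a median of -0.23, and 50.7% lay below 0 over all probe sets without the filter. Groups overlapped on each of the 9 probe sets, so that 0 separated, beside 2.83% of all probe sets higher and 2.04% lower without overlap. Ifi202b differed by -0.96 (SE 0.37) on 1457666_s_at and by -0.99 (SE 0.47) on 1421551_s_at. Mndal differed by -0.55 (SE 0.24) and -0.43 (SE 0.27), the Ifi203 probe sets by -0.30 (SE 0.22), -0.23 (SE 0.17) and, on 1442828_at, 0.21 (SE 0.20). For the pair of probe sets listing Ifi205 and Ifi211 the differences were -0.48 (SE 0.27) and -0.51 (SE 0.24). This comparison shares its DNCB arrays with the first, so a high DNCB array raises one difference and lowers the other. Leaving out 1 array moved 8 of the 9 differences by over 1.5 times, all but that of 1426906_at. Without DNCB array 1 the differences were -0.16 for 1452349_x_at, -0.16 for 1452231_x_at, -0.09 for 1448775_at, -0.13 for 1451567_a_at and -0.25 for 1452348_s_at. On 1421551_s_at the difference was -0.54 without DNCB array 2 and -1.55 without DNCB array 3, and 1451567_a_at stood at -0.34 without the latter. Leaving out DNCB array 2 gave 0.09 for 1442828_at, and leaving out DNCB+HY209 array 1 gave 0.07. Ifi202b on 1457666_s_at differed by -0.55 without DNCB+HY209 array 1, and by -0.36 with array weights.

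The third comparison set DNCB+HY209 skin against sham and shares arrays with both others. One family probe set, 1457666_s_at of Ifi202b, was called, with a difference of 2.67 (SE 0.41), or 6.36-fold, beside 0.207% of all probe sets called higher and 0.0608% called lower. The call ended without 7 of the 8 arrays in turn, and remained without DNCB+HY209 array 1. For 7 of the 9 every HY209 array lay above both sham arrays and for 0 below, beside 26.7% and 14.2% of all probe sets. Over the 17 found, 9 lay above and 2 below without overlap, beside 17.4% and 20.3% of all probe sets without the filter, and the median difference was 0.18. Mndal on 1426906_at differed by 1.55 (SE 0.27), 1448775_at by 1.28 (SE 0.24) and Ifi202b on 1421551_s_at by 1.46 (SE 0.53). The differences of the probe sets listing Ifi205 and Ifi211 were 0.27 (SE 0.30) and 0.02 (SE 0.26), within their errors of 0. In order of group means, 8 of the 9 probe sets ran from sham through DNCB+HY209 to DNCB and 1442828_at ran the other way; neighbours in this order did not separate between DNCB+HY209 and DNCB on any probe set.

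**Figure D4:**
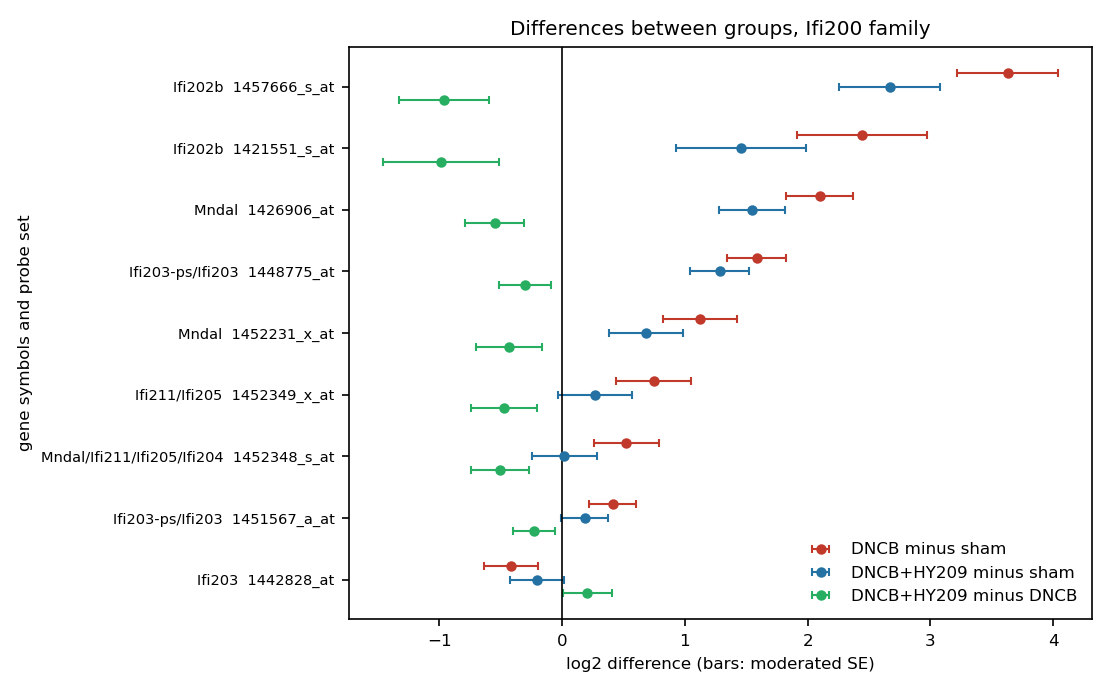
Log2 differences (x axis, with moderated SE as bars) of the 9 tested family probe sets in the 3 comparisons, ordered by the difference of DNCB from sham. Ifi202b on 1457666_s_at stands 3.63 above sham in DNCB and 2.67 above it with HY209. The points of DNCB+HY209 against DNCB lie left of 0 except for 1442828_at.

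Genes that act with the family were read from lists, each at its brightest probe set. Of 15 genes of other cytosolic DNA sensing and nucleic acid clearance that were tested, 1 rose in DNCB, 0 fell and 14 did not pass, beside 0.966% called higher and 0.298% lower of 12420 genes. The one that rose, Samhd1, a phosphohydrolase that depletes nucleotides and restrains nucleic acid sensing, went from 5.60 ± 0.32 (SD, n = 2) in sham to 9.10 ± 0.27 (n = 3), a log2 difference of 3.51 (SE 0.42, limma adjusted p = 0.0124). Its 5 probe sets ran from 0.48 to 3.51, and the call ended without sham array 1, sham array 2 or DNCB array 1. The DNA sensor Cgas, named like the following sensors after its values were seen, differed by 0.56 (SE 0.24, limma adjusted p = 0.321). Its adaptor Sting1 differed by -0.03 (SE 0.20), while its other probe set differed by 2.06, and the sensor Zbp1 differed by 0.74 (SE 0.34, limma adjusted p = 0.337). With HY209 0 of the 15 were called, with 0.37 (SE 0.28) for the ribonuclease subunit Rnaseh2a and 0.36 (SE 0.27) for Rnaseh2b.

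Of 11 tested inflammasome genes, which included Nlrp3 and Nek7 beside partners and products downstream of Aim2, 0 rose and 0 fell in DNCB. This is near the share of all 12420 genes, of which 0.966% were called higher and 0.298% lower. Of the 11 differences 10 lay above 0, with a median of 0.77, against 0.15 over the 12420 genes. Il1b, the cytokine that the inflammasome matures, differed by 1.37 (SE 0.34, limma adjusted p = 0.116) and Casp8 by 1.39 (SE 0.36, limma adjusted p = 0.131), both without overlap between DNCB and sham. Il1b did pass the threshold without DNCB array 3, and with the Gapdh ratio as a covariate. With HY209 against DNCB 0 of 11 were called, and the values were -0.79 (SE 0.31) for Il1b and -0.36 (SE 0.18) for Gsdmd, the pore-forming substrate of inflammatory caspases. Against sham, Casp1 differed by 1.20 (SE 0.36, limma adjusted p = 0.183) in DNCB+HY209 skin and Casp8 by 1.16 (SE 0.36, limma adjusted p = 0.187). With array weights both passed the threshold, and Casp1 also without DNCB+HY209 array 1.

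Upstream of the family, 0 of 16 tested interferon ligands, receptors and signalling genes were called in DNCB. This too is near the shares of all 12420 genes, 0.966% called higher and 0.298% lower. Of the 16 differences 13 lay above 0, with a median of 0.69. Irf9, the DNA-binding subunit of the complex that binds the response element, differed by 1.11 (SE 0.24, limma adjusted p = 0.0768) and Irf7, which amplifies type I interferon, by 1.15 (SE 0.31, limma adjusted p = 0.146). With HY209 against DNCB 0 of 16 were called, and the largest by moderated t were Il10rb, a receptor chain, with -0.46 (SE 0.20), and Irf8 with -0.28 (SE 0.17). Of 26 interferon-stimulated genes outside the family 11 rose in DNCB, 0 fell and 15 did not pass, beside 0.966% called higher and 0.298% lower of all genes. Their median difference was 1.65, against 0.15 over all 12420 genes. The 3 largest were Oasl2 (3.43, SE 0.34, limma adjusted p = 0.00579), the chemokine Cxcl9 (3.09, SE 0.50, limma adjusted p = 0.0301) and Rtp4 (2.94, SE 0.28, limma adjusted p = 0.00508). The sham signal of Oasl2, 2.64 on both arrays, lay far below the array medians, and that of Cxcl9 had a mean of 4.01. Ifit1, also called, had a sham mean of 3.31. These genes passed the filter only through the groups in which they were high, so their calls support nothing. For Rtp4 and Gbp3, also called, a sham signal lay below the array medians and the other above. Sham alone would not have carried either gene past the filter, so their calls too support nothing. The list was chosen with earlier results of these data known, so the 11 of 26 is a description. The calls of Oasl2, Cxcl9 and Rtp4 each ended without sham array 1 and without sham array 2. That of Cxcl9 also ended without 4 other arrays. With HY209 against DNCB 0 of 26 were called, 23 differences lay below 0 and the median was -0.23, and the largest by moderated t were Ifit1 with -0.74 (SE 0.40) and Mx1 with -0.63 (SE 0.35). In DNCB+HY209 skin 3 of the 26 were called higher than sham, namely Oasl2 (2.89, SE 0.34), Rtp4 (2.71, SE 0.28) and Iigp1 (1.71, SE 0.26), as was Samhd1 (3.02, SE 0.42), beside 0.233% called higher and 0.0966% lower of all genes. The call of each of these 4 ended without at least 4 of the 8 arrays in turn. In this comparison too, the calls of Oasl2 and Rtp4 support nothing, since their sham signals did not carry them past the filter.

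**Figure D5:**
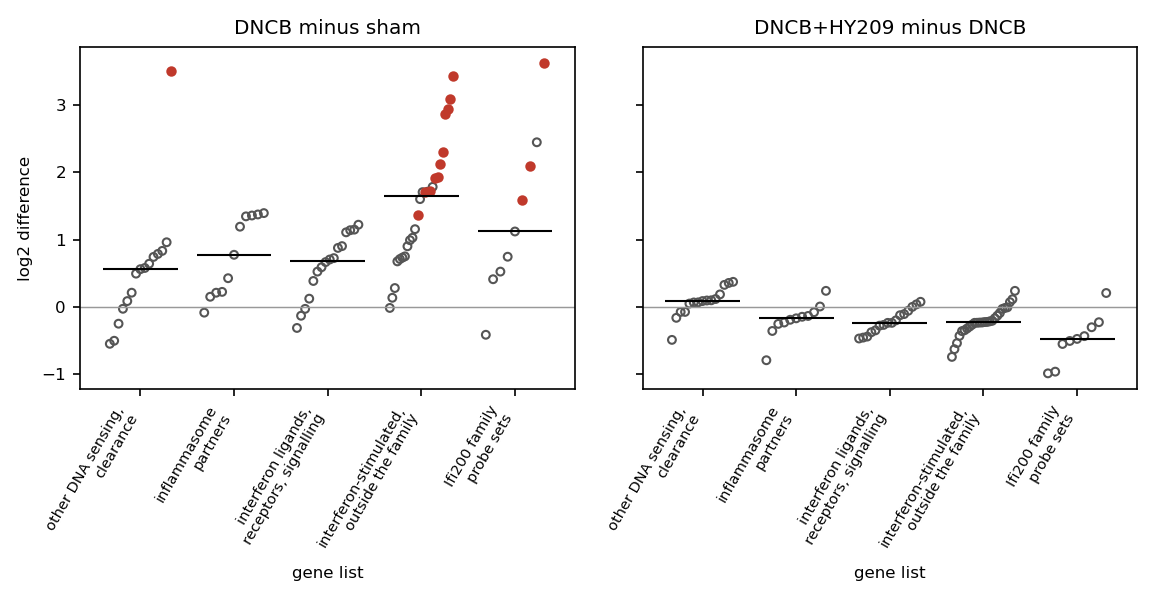
Log2 differences (y axis) of the tested genes of 4 lists and of the 9 family probe sets, for DNCB against sham (left) and DNCB+HY209 against DNCB (right). Each point is a gene or probe set, filled points had a limma adjusted p under 0.05 and bars are medians; 11 interferon-stimulated genes, Samhd1 and 3 family probe sets are filled on the left and none on the right.

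Markers of cell types that could carry these transcripts also differed between groups, and their part in the result was not tested. The mean log2 signal of 7 pan-leukocyte markers was 4.49 and 4.86 in sham, 5.94 to 6.46 in DNCB and 5.25 to 6.27 with HY209, and Ptprc and Cd52 were called higher in DNCB. For 14 markers of macrophages and monocytes the mean was 5.25 and 5.49 in sham, 5.58 to 6.58 in DNCB and 5.37 to 5.99 with HY209, with 0 called. That of 7 endothelial markers was 4.72 and 4.93, 5.83 to 6.53 and 5.22 to 5.77, with Cdh5 called higher in DNCB. The mean of 8 T cell markers lay between 4.44 and 4.72 on all arrays, with Cd3g, Cd247 and Cd2 below the array medians throughout, and that of 4 B cell markers between 3.59 and 4.51. The mean of 7 neutrophil markers was 4.13 and 4.16 in sham, 5.59 to 6.05 in DNCB and 5.20 to 5.73 with HY209, with Mpo below the medians throughout. S100a8 and S100a9 alone were called, higher in both DNCB groups than in sham. Over the 6 tested neutrophil markers the median difference from sham was 0.40 in DNCB and 0.03 in DNCB+HY209. Keratinocyte markers, which define the labelled tissue, had means of 9.67 and 10.07 in sham, 11.64 to 12.52 in DNCB and 10.94 to 12.51 with HY209. Of 10 tested, 3 were called higher and 1 lower in DNCB than in sham, so the markers did not all rise. The called ones were Krt15, Krt6a, Krt6b and Krt16. With HY209, Krt6b and Krt16 were called higher than in sham. Fibroblast means were 8.11 and 8.74 in sham, 8.43 to 9.61 in DNCB and 7.84 to 8.29 with HY209. The latter lay below DNCB without overlap, with a median difference of -0.99 over 8 markers and 0 called, and Pdgfrb was called higher in DNCB than in sham. Hair follicle means were 6.90 and 9.03 in sham, 5.04 to 7.14 in DNCB and 5.88 to 7.99 with HY209, with a median difference of -1.93 between DNCB and sham and Krtap3-1 called lower. DNCB+HY209 array 1, the lowest of its group for Ifi202b, was also the lowest of its group in the pan-leukocyte (5.25), neutrophil (5.20), endothelial (5.22), fibroblast (7.84) and keratinocyte (10.94) means. The same held for the T cell (4.44) and the dendritic and Langerhans cell (5.35) means. In the hair follicle (7.99), skeletal muscle (11.28) and B cell (4.16) means, array 1 was instead the highest of its group. In the macrophage and monocyte mean array 2 was the lowest, with 5.37 against 5.67 on array 1.

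Genes whose profile over the 8 arrays was closest to that of the family were sought among 12417 genes by the root mean square difference between log2 profiles centred on their own means. The family profile was the mean over 6 probe sets that represent its genes above the filter. The called probe sets 1457666_s_at and 1426906_at were not among them. Ifi203 was represented by 1442828_at, which lay lower in DNCB than in sham. The 5 closest were Ldb2 (root mean square difference 0.09), Fgd5 (0.11), Epb41l2 (0.12), Lix1l (0.14) and Eng (0.14). Ldb2 had mean signals of 4.53 in sham, 5.62 in DNCB and 5.26 with HY209. For the probe set 1457666_s_at of Ifi202b alone, a profile chosen after its values were seen, the closest were Ctla2a (0.33), Samhd1 (0.34), Pdgfrb (0.36), Cotl1 (0.37) and Thbd (0.41). On the chromosome, 2 genes within 500 kb of the cluster had a tested probe set. The chemokine-binding receptor Ackr1 differed by -0.31 (SE 0.24, limma adjusted p = 0.517) and the adhesion molecule Cadm3 by -0.77 (SE 0.25, limma adjusted p = 0.21) between DNCB and sham.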

How the data were processed

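Analysis began from the authors' deposited log2 table; the range of its values gave the scale. MAS5 and Expression Console of Affymetrix are named in the submitters' processing notes; how arrays were scaled to one another was not given in the sources. Although the labels name the 430A array, these probe sets were annotated as those of its larger relative. Of 45101 probe sets, 64 controls were left out, and of the rest 34945 had 1 symbol, 932 several and 9160 none listed. Probe sets above the array median on at least 2 of 8 arrays (24675) were tested with limma 3.58.1 in R 4.3.3 (lmFit, eBayes with intensity trend, 1 fit of all arrays, two-sided, Benjamini-Hochberg over all probe sets tested, threshold 0.05). SE is the moderated standard error. A listed gene was read at its brightest tested probe set with 1 symbol. From each list the 3 largest differences past the threshold, or the 2 largest by moderated t, were named, and the 5 genes closest in profile; every family probe set was described. The members, lists and tests were chosen with earlier results of these data known. The number of arrays limits the precision. Promoters came from RefSeq (GRCm38.p6). The alternatives were 12 changes of normalization, filter, unit, variance model, weights, samples, block and covariates, and each array left out in turn. Figures were drawn with Python 3.11.15.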

Additional observations from a re-analysis of the deposited data

How the results depend on the processing

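No family probe set was called for DNCB+HY209 against DNCB under any of the 20 alternatives. For DNCB against sham the 3 calls became 0 with 1 probe set per gene, which leaves out the 3 called, 0 with the spike-in covariate, 1 with the replicate block, and 0 to 4 with 1 array left out. The 12 called genes of the pathway lists became 1 with the spike-in covariate, 2 with the replicate block, and 0 to 15 with 1 array left out. For DNCB+HY209 against sham the 1 family call became 2 after quantile normalization, 3 with array weights, 0 with median centring, 1 probe set per gene, only the 2 groups compared, the replicate block, the spike-in covariate or the Gapdh covariate, and 0 to 2 with 1 array left out. The 4 pathway calls of that comparison became 2 with median centring, 22 with array weights, 2 with only the 2 groups compared, 0 with the replicate block, 0 with the spike-in covariate, and 0 to 15 with 1 array left out. The number called over all probe sets tested also changed. For DNCB against sham, 236 in the main fit became 20 with the spike-in covariate and 20 with the replicate block. For DNCB+HY209 against sham, 66 became 141 after quantile normalization, 1125 with array weights, 32 with median centring and 62 with the Gapdh covariate. The number was 24 with only the 2 groups compared, 8 with the replicate block and 9 with the spike-in covariate. Apart from the 1 probe set per gene, the cause was not tested. The labels do not say whether arrays with the same replicate number belong together. Their deviations from the group means correlated with r from -0.62 to 0.24. This cannot decide the question, because deviations within a group of 2 or 3 arrays are tied to one another. All differences of DNCB from sham and of DNCB+HY209 from DNCB in the 9 family probe sets kept their sign; against sham with HY209, 1452348_s_at and 1442828_at did not in each alternative. Quantile normalization moved the median of all differences from 0.11 to -0.01 for DNCB against sham and from 0.15 to 0.00 for DNCB+HY209 against sham.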
